A study of Homo sapiens with 24 samples.

Results

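ZNF85, ZNF91, ZNF43, ZNF100, ZNF93, ZNF430, ZNF431, ZNF714, ZNF708 and ZNF429 are 10 neighbouring zinc finger genes of human chromosome 19, band 19p12, and their transcripts are described here in leukemia cells treated with a FLT3 inhibitor, a histone deacetylase inhibitor or both. ZNF85 was chosen by its signals on these same arrays, because it stands in the study's list of genes tied to the combined drugs in both cell lines, and the other 9 genes were chosen as its relatives in the cluster with these results known. The drug responses of ZNF85 are therefore given as values with no test. Counts of members called with a drug leave it out, except in the section on how the results depend on the processing. Of the 10 genes, 9 had a probe set that the array annotation assigned to that gene alone, out of 19775 such genes in the series, and ZNF714 had none among the probe sets named here. The 9 measured genes had 22 probe sets of their own. For each gene the probe set with the highest mean log2 signal over the 24 arrays was its main probe set, and the others are described after it.

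KRAB zinc finger proteins are transcriptional repressors that bind DNA through an array of zinc fingers and, through the KRAB domain, recruit TRIM28, which brings in the histone methyltransferase SETDB1, HP1 proteins and histone deacetylase complexes. Genes of this family lie in clusters made by repeated duplication, and many of the proteins bind retrotransposons. ZNF91 and ZNF93 are known for silencing SVA and LINE-1 elements, respectively, in primate cells. For most of the other members a target is less well known. In the RefSeq annotation, 30 protein-coding genes lay between ZNF93 and ZNF91 with both included, and 29 of them had symbols beginning with ZNF. ZNF85, ZNF430, ZNF714, ZNF431 and ZNF708 followed each other with no other protein-coding gene between them, and so did ZNF429, ZNF100 and ZNF43.

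Expression was measured on Affymetrix U133 Plus 2.0 arrays in MV4-11 and MOLM-14, 2 human acute myeloid leukemia lines that both carry FLT3-ITD, an activating duplication of the receptor tyrosine kinase FLT3. MOLM-14 also has a wild-type FLT3 allele, while MV4-11 expresses the mutated allele alone. Each line received DMSO, the drugs' solvent, ABT-869 (3 nM), an inhibitor of FLT3 and other receptor tyrosine kinases, SAHA (6 µM), an inhibitor of histone deacetylases, or ABT-869 with SAHA, for 24 hours. The methods do not repeat the doses for the combination. Each of the 8 groups had 3 arrays, described as biological triplicates, all from established lines grown in culture. The question put to the arrays was which genes change in both lines under the combination and not under either drug by itself.

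The promoters of all members hold the motif CCAATCA, in layouts that differ between them. So do those of the other zinc finger genes of 19p12 that could be searched. The choice of genes did not use promoter sequence. The last 130 bases before the RefSeq gene start are shown for ZNF85, whose signal was lowest with the combination in both lines, and its neighbour ZNF430, for ZNF431 and ZNF100, which fell in MOLM-14, and for ZNF708, whose response differed between the lines. The sequences are RefSeq's (GRCh38.p14), written 5′ to 3′ on the strand of the gene, with CCAATCA in capitals. The windows are chr19:20923121-20923250 on the plus strand for ZNF85, chr19:21020527-21020656 on the plus strand for ZNF430, chr19:21141910-21142039 on the plus strand for ZNF431, chr19:21767580-21767709 on the minus strand for ZNF100 and chr19:21329411-21329540 on the minus strand for ZNF708.
ZNF85: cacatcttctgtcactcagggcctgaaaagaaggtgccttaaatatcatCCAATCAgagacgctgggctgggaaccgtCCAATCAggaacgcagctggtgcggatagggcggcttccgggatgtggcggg
ZNF430: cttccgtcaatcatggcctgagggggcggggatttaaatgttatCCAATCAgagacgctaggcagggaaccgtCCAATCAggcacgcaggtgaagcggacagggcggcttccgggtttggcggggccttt
ZNF431: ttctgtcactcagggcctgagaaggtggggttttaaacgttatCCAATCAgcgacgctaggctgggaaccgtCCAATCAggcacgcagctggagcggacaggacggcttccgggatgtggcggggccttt
ZNF100: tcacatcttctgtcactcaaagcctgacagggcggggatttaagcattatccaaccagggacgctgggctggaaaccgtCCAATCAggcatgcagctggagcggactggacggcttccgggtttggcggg
ZNF708: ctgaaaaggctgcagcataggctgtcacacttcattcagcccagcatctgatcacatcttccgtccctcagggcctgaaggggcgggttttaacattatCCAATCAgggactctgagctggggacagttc

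CCAATCA, a form of the CCAAT box, was searched on both strands of the 300 bases from 250 before to 50 after the start. It was present in 10 of 10 member promoters and in 7.28% of the 27305 RefSeq promoters of that length. At least 2 copies were present in 6 of the 10 (ZNF93, ZNF85, ZNF430, ZNF714, ZNF431 and ZNF43), against 1.2% of all promoters. In 5 of these 6 the copies began 29 bases apart, and in ZNF93 they began 28 bases apart. All copies were on the strand of the gene. GGGCGG was present in 8 of 10 member promoters and 44.6% of all, and TTCCGG in 8 of 10 and 17.6%. In the other zinc finger genes of 19p12 the shares were 76.5% and 88.2%, and in the other zinc finger clusters of chromosome 19 they were 59.8% and 51.0%. These motifs overlapped neither each other nor CCAATCA, except that both hits of TTCCGG in ZNF429 were on opposite strands and overlapped. The promoters aligned to each other over 245 to 305 columns with 69.9% to 91.0% identity (median 82.1% of 45 pairs), highest for ZNF714 and ZNF431 and lowest for ZNF93 and ZNF429. Genes copied from one another are not independent, so the 10 promoters do not count as 10 separate observations. Of 17 other zinc finger genes of 19p12 with a promoter in the table, 17 had CCAATCA and 10 had at least 2 copies. In the other zinc finger clusters of chromosome 19 it was present in 25 of 102 promoters, 2 of which had at least 2 copies. The letters are a description of these windows, and no protein binding was measured.

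**Figure D1:**
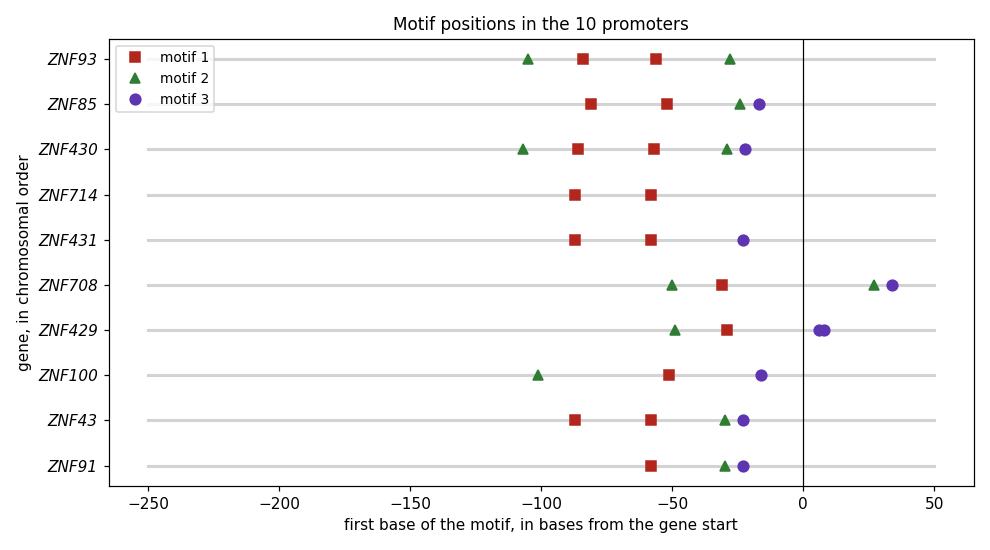
Position of 3 motifs in the promoters of the 10 genes, in chromosomal order. The x axis gives the first base of each match in bases from the RefSeq gene start (vertical line), each grey line spans the 300 bases searched, and motif 1 is CCAATCA, motif 2 GGGCGG and motif 3 TTCCGG. Motif 1 occurs in all 10 promoters and at least 2 times in 6 of them.

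The arrays held the authors' linear signals, scaled to the same trimmed mean on each array, and all tests below are on the log2 scale with limma and Benjamini-Hochberg adjustment over 54613 probe sets, called at an adjusted p under 0.05. Because each array is scaled, a change in the total RNA per cell cannot be seen. The median signal of an array was between 61.2 and 99.4. Of 7 measured myeloid genes, CEBPA, LYZ and FLT3 were at 10510.6 or above on all arrays and SPI1 at 920.3 or above, while CSF1R and MPO went down to 428.8 and 210.6 and ANPEP stayed at or below 57.5. Of the markers of other cells, EPCAM reached 48.1, ALB 82.2, CD3E 139.0, HBB 229.6 and COL1A1 579.5. CD33 had no probe set of its own here. Deviations from the group mean had an SD over 0.3 (log2 scale) on replicate 1 of the MOLM-14 combination, replicate 3 of MOLM-14 DMSO, replicate 2 of MV4-11 ABT-869 and replicates 2 and 3 of the MV4-11 combination. A fit without these arrays leaves 1 MV4-11 combination array, which is then assumed to vary like the other groups.

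ZNF85 had lower signals with SAHA and with the combination than with DMSO in both lines, and in MV4-11 the combination was also below SAHA. In MV4-11 its signals (probe set 206572_x_at) were 1604.4, 1633.3 and 1913.1 with DMSO, 1206.1, 1240.4 and 1453.8 with ABT-869, 734.5, 844.5 and 1092.3 with SAHA and 552.5, 556.3 and 657.7 with the combination. The 4 groups of this line did not overlap, and the order DMSO, ABT-869, SAHA, combination ran from high to low. In MOLM-14 the signals were 1028.0, 1190.8 and 1192.2 with DMSO, 689.9, 913.9 and 1004.8 with ABT-869, 456.4, 491.0 and 545.4 with SAHA and 416.8, 467.2 and 481.8 with the combination. Here the SAHA and combination arrays overlapped, while both lay below all arrays of the other groups. Against DMSO the log2 difference of ZNF85 was −0.40 with ABT-869, −0.96 with SAHA and −1.54 with the combination in MV4-11 (SE 0.17 for each). It was −0.40, −1.19 and −1.32 in MOLM-14 (SE 0.16 for each). The study's list was of genes changed 2-fold or more with the combination and not with either drug alone. On these signals SAHA alone took ZNF85 past 2-fold in MOLM-14 (mean 1137 with DMSO and 497.6 with SAHA). The combination was 0.343 times the DMSO level in MV4-11 and 0.401 times in MOLM-14. Over all 8 groups the levels ran from MV4-11 DMSO (mean 1717 ± 170, SD, n = 3) to MOLM-14 combination (455.3 ± 34.1). Neighbours in that order overlapped for MOLM-14 DMSO and MV4-11 SAHA, MV4-11 SAHA and MOLM-14 ABT-869, and MOLM-14 SAHA and MOLM-14 combination. The suffix _x_at marks a probe set whose probes can match similar sequences, so on these arrays signal from close relatives in the cluster cannot be told apart from that of ZNF85. The same holds for the main probe sets of ZNF43, ZNF93, ZNF430 and ZNF708. For ZNF85 the study also reports real-time quantitative PCR of the mRNA that bore out its change. The PCR values were not available here. A second probe set of ZNF85, 1554445_at, had a mean signal at percentile 8.0 of all probe sets and gave −1.75 (SE 1.02) with the combination in MV4-11 and −0.84 (SE 1.07) in MOLM-14.

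**Figure D2:**
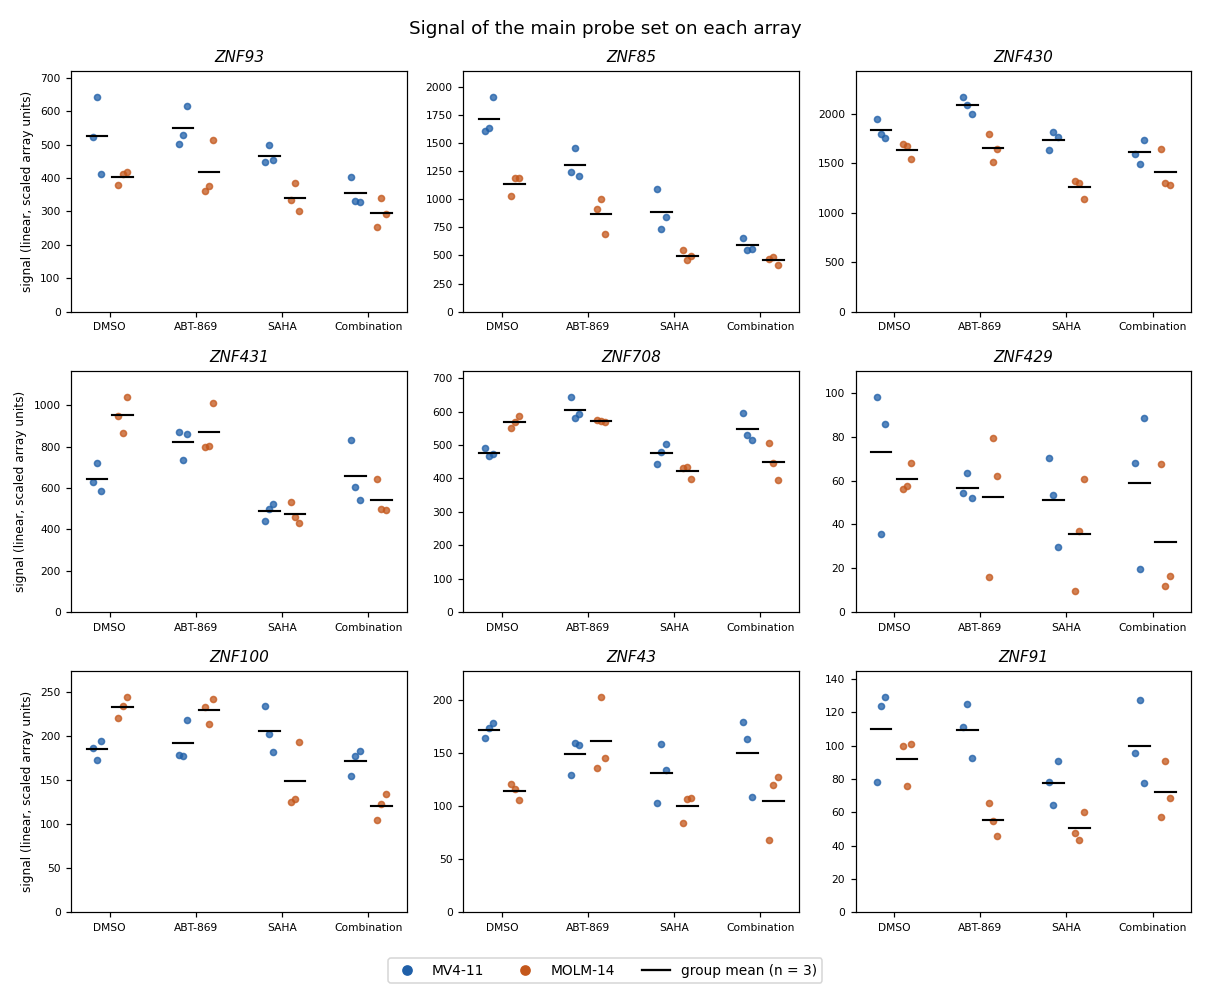
Linear signal of the main probe set of the 9 measured genes on each of the 24 arrays, by treatment (x axis) and cell line (colour), with black bars for the means of 3 arrays. ZNF85 goes from 1717 with DMSO to 588.8 with the combination in MV4-11 and from 1137 to 455.3 in MOLM-14, and ZNF429 has overlapping arrays in all groups, on y axes that start at 0 in each panel.

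In MOLM-14, ZNF431 fell with SAHA and ZNF431 and ZNF100 fell with the combination, to between 0.495 and 0.568 times the DMSO level, while no member rose. ZNF431 was measured at 866.3, 950.5 and 1041.4 with DMSO, 428.4, 457.5 and 531.2 with SAHA and 493.2, 496.5 and 641.9 with the combination (probe set 244663_at). All 6 SAHA and combination arrays lay below all 3 DMSO arrays. The log2 change of ZNF431 was −1.01 ± 0.16 (SE, n = 3 per group, adjusted p = 0.0119) with SAHA and −0.82 ± 0.16 (adjusted p = 0.0199) with the combination. ZNF100 was measured at 220.1, 233.9 and 243.9 with DMSO and at 104.5, 123.0 and 133.9 with the combination (probe set 238791_at). Its groups did not overlap, and it fell by 0.96 ± 0.18 on the log2 scale (adjusted p = 0.017). With SAHA its arrays read 124.9, 128.5 and 193.5, also all below DMSO, and the change of −0.67 ± 0.18 did not pass (adjusted p = 0.065).

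Of the 8 measured genes other than ZNF85, 1 was called lower with SAHA in MOLM-14 (ZNF431), where 2.58% of all probe sets were called lower, and 2 with the combination (ZNF100 and ZNF431), where 2.80% were. Among the 27311 probe sets above the median signal, where the main probe sets other than that of ZNF429 lie, 4.37% and 5.27% were called lower. All 8 had log2 changes below 0 with SAHA, with a median of −0.55 against −0.14 over all probe sets, and all 8 with the combination, with a median of −0.41 against 0.03. Of all probe sets 60.3% were below 0 with SAHA and 47.4% with the combination. The SAHA and combination comparisons share their DMSO arrays. ZNF91, the silencer of SVA elements, changed by −0.88 with SAHA (adjusted p = 0.0575) and −0.37 with the combination (adjusted p = 0.45). ZNF708 changed by −0.43 (adjusted p = 0.0619) and −0.35 (adjusted p = 0.123), and ZNF430 by −0.39 (adjusted p = 0.144) and −0.23 (adjusted p = 0.441). ZNF93, the silencer of LINE-1 elements, changed by −0.26 (adjusted p = 0.464) and −0.46 (adjusted p = 0.187), and ZNF43 by −0.20 (adjusted p = 0.718) and −0.17 (adjusted p = 0.804). ZNF429 lay below the median signal, at 9.4 to 60.6 with SAHA and 56.4 to 68.2 with DMSO, and its change of −1.14 had a standard error of 0.88.

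The calls in MOLM-14 rest on few arrays. The fall of ZNF431 with SAHA was lost without MOLM-14 SAHA replicate 2 (adjusted p = 0.0507) or replicate 3 (adjusted p = 0.0537). That of ZNF100 with the combination was lost without MOLM-14 DMSO replicate 1 or 2 or combination replicate 1 or 2 (adjusted p = 0.0527 to 0.0635), and without all the arrays that stood apart (−0.82, adjusted p = 0.107). That of ZNF431 with the combination was lost without any 1 of the 3 DMSO arrays or without combination replicate 2 or 3 (adjusted p = 0.0524 to 0.0781). Over all alternatives run the log2 changes stayed between −1.10 and −0.76, −1.04 and −0.82, and −0.94 and −0.75, respectively. Other probe sets of ZNF431 did not pass and are given further on. When the fit held only probe sets above the median signal, which leaves out ZNF429, 5 of the remaining 7 members were called lower with SAHA (ZNF431, ZNF100, ZNF708, ZNF430 and ZNF91) and 3 with the combination (ZNF100, ZNF431 and ZNF708), where 11.6% and 11.2% of all probe sets in that fit were called lower. When arrays were centred on their medians, ZNF43 was at 0.05 with SAHA and the other members were below 0, while the median over all probe sets was 0.11. Without the arrays that stood apart, ZNF43 was at 0.065 with the combination and the other members were below 0.

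**Figure D3:**
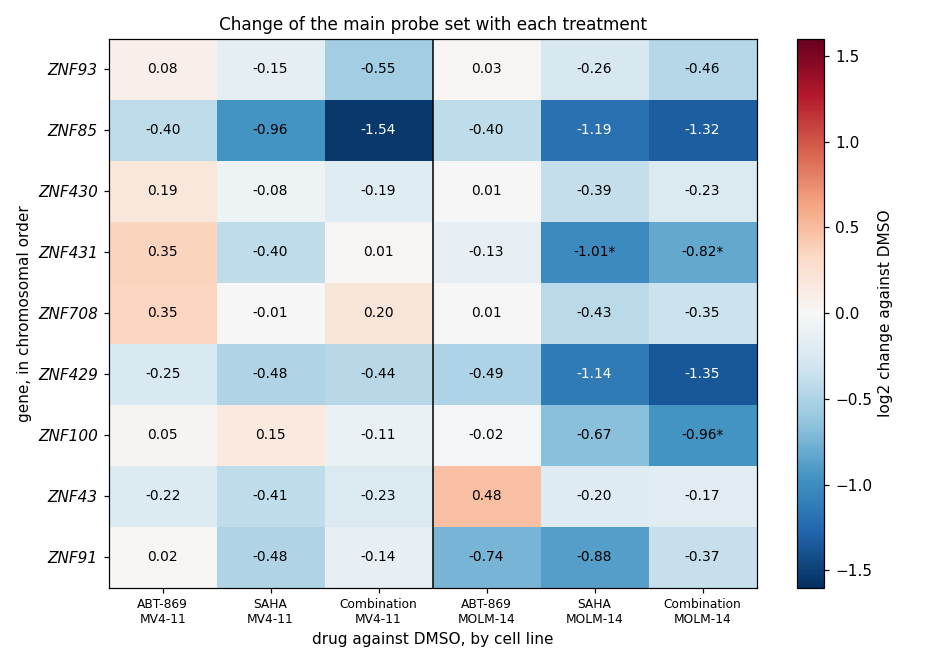
Log2 change of the main probe set of the 9 measured genes (rows, in chromosomal order) against DMSO, by treatment and cell line (columns), with the value in each cell. An asterisk marks an adjusted p under 0.05, not given for ZNF85, and stands only in the MOLM-14 columns, at −1.01 and −0.82 for ZNF431 and −0.96 for ZNF100.

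In MV4-11, the main probe sets of the 8 members other than ZNF85 were not called in any drug comparison. With SAHA the other 8 genes had log2 changes from −0.48 (ZNF91 and ZNF429) to 0.15 (ZNF100), and none of them had an unadjusted p under 0.05, where 2.46% of all probe sets were called by limma in either direction. With the combination 0 of 8 were called lower by limma, against 4.05% of all probe sets, and 1, ZNF93, had an unadjusted p under 0.05. ZNF93 had signals of 411.9, 522.4 and 644.2 with DMSO and 328.7, 331.3 and 402.3 with the combination. These arrays did not overlap, and the change of −0.55 ± 0.18 did not pass (adjusted p = 0.0944). It passed when dim probe sets were left out, with limma-trend, in 1 fit over all 24 arrays and without MV4-11 DMSO replicate 3. On its main probe set ZNF431 did not differ beyond its spread, with a change of 0.01 (95% interval −0.39 to 0.42), and ZNF100 changed by −0.11 (−0.44 to 0.22). The almost equally bright ZNF431 probe set 232338_at read 520.5, 541.5 and 560.1 with DMSO and 624.8, 925.8 and 1130.8 with the combination. Those groups did not overlap, and 0 of the 22 probe sets of members were called higher. On the ZNF431 probe set 243491_at the groups overlapped.

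On the main probe sets the response to the combination differed between the lines for 3 members, ZNF100, ZNF431 and ZNF708. The test was the interaction term of 1 fit over all 24 arrays. All 3 were lower in MOLM-14 relative to MV4-11. In that direction 3.41% of all probe sets were called, and 6.61% of those above the median signal. These main probe sets were the only ones called among the 22 of the members, so the other probe sets of ZNF431 did not pass. ZNF708 was measured at 466.0, 473.1 and 489.9 with DMSO and 514.4, 530.4 and 595.1 with the combination in MV4-11 (probe set 239482_x_at). In MOLM-14 it was at 551.3, 567.5 and 586.0 with DMSO and 394.2, 445.8 and 505.7 with the combination. The combination arrays thus lay above DMSO in the first line and below it in the second. The difference between the responses, MOLM-14 minus MV4-11 on the log2 scale, was −0.54 ± 0.14 for ZNF708 (adjusted p = 0.0244), −0.85 ± 0.22 for ZNF100 (adjusted p = 0.027) and −0.83 ± 0.23 for ZNF431 (adjusted p = 0.0393). The change of ZNF708 within each line did not pass, at 0.20 in MV4-11 (adjusted p = 0.359) and −0.35 in MOLM-14. Each of the 3 differences was lost when some single arrays were left out. For ZNF708 these were replicate 1 of the MV4-11 combination, replicate 3 of the MOLM-14 combination, and replicates 2 and 3 of DMSO in both lines (adjusted p = 0.0508 to 0.0748). Without the arrays that stood apart, ZNF100 was at −0.57 (adjusted p = 0.386).

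**Figure D4:**
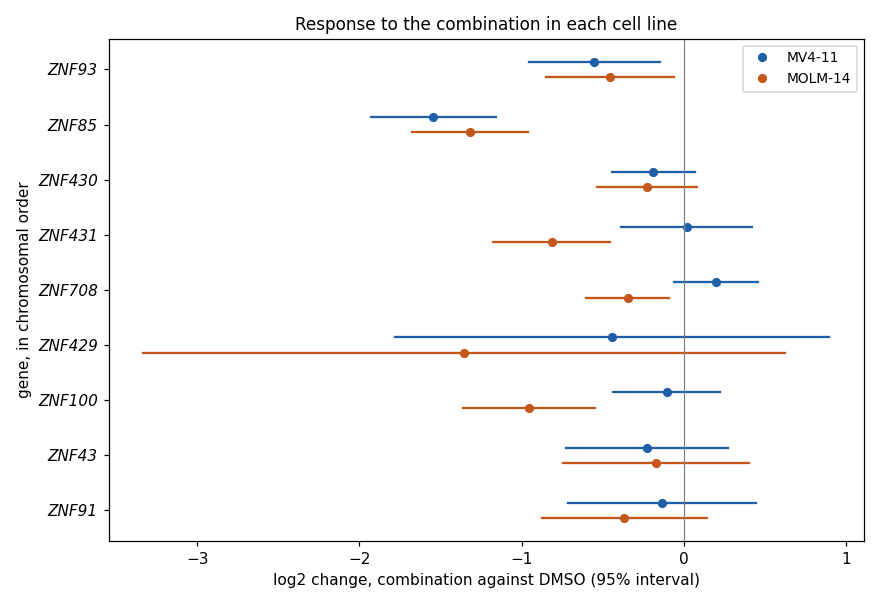
Log2 change with the combination against DMSO (x axis, with 95% intervals from the fit of each line) for the main probe set of the 9 measured genes (y axis), in MV4-11 (blue) and MOLM-14 (orange). ZNF85 is at −1.54 and −1.32, and ZNF100, ZNF431 and ZNF708 are lower in MOLM-14, at −0.96, −0.82 and −0.35, than in MV4-11, at −0.11, 0.01 and 0.20.

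For single drugs the responses of the lines were not told apart. With limma, 0 of 8 members had a different response to SAHA in the lines, where 1.23% of all probe sets did in either direction, and 3 had an unadjusted p under 0.05 (ZNF100 at −0.82, ZNF431 at −0.61 and ZNF708 at −0.43, MOLM-14 minus MV4-11). For ABT-869 0 of 8 differed by limma, where 0.352% of all probe sets did, and 2 (ZNF91 and ZNF708) had an unadjusted p under 0.05.

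ABT-869 alone moved few probe sets in either line and no member by the test. In MV4-11 0.862% of all probe sets were called in either direction and 0 of 8 members by limma, 1 of which, ZNF708, had an unadjusted p under 0.05. ZNF708 had all 3 ABT-869 arrays (580.9, 593.6 and 644.1) above the 3 DMSO arrays, a change of 0.35 ± 0.11 (adjusted p = 0.229) that passed with a floor of 32 and when dim probe sets were left out. On its main probe set ZNF431 changed by 0.35 ± 0.18 (adjusted p = 0.449), from 585.1 to 722.6 with DMSO to 733.9 to 870.2 with ABT-869. Its other probe sets read higher as well. On 232338_at the range was 520.5 to 560.1 with DMSO and 711.5 to 1195.5 with ABT-869. On 243491_at it was 304.6 to 467.1 and 512.9 to 577.8. The groups did not overlap on any of these probe sets, and 0 of the 22 probe sets of members were called higher by limma. In MOLM-14 0.0165% of all probe sets were called and again 0 of 8 members by limma, 1 of which, ZNF91, had an unadjusted p under 0.05. On its main probe set ZNF91 changed by −0.74 ± 0.23 there (adjusted p = 0.511), from 75.9, 99.9 and 101.0 to 45.7, 54.5 and 65.6, groups that did not overlap. Its other probe sets lay below the median signal, and none was called. On the brightest of them, 244259_s_at, the arrays overlapped, at 34.8 to 49.2 with DMSO and 27.5 to 59.1 with ABT-869.

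The combination was set against each drug alone to see what the second drug added. ZNF100 and ZNF431 were lower with the combination than with ABT-869 in MOLM-14, with differences of −0.93 ± 0.18 (adjusted p = 0.0143) and −0.68 ± 0.16 (adjusted p = 0.0325). These were 2 of 8 members, against 3.54% of all probe sets called lower. ZNF85 was at −0.92. ZNF100 lost this call without MOLM-14 ABT-869 replicate 3 (adjusted p = 0.0501) or combination replicate 1 (adjusted p = 0.0504) and without all the arrays that stood apart (adjusted p = 0.0695). ZNF431 lost it without any 1 of DMSO replicate 1, the 3 ABT-869 arrays, SAHA replicate 2 and combination replicates 2 and 3 (adjusted p = 0.0516 to 0.109). In MV4-11 0 of 8 were called by limma, where 3.70% of all probe sets were called in either direction. ZNF93 (−0.64, adjusted p = 0.0939) and ZNF430 (−0.38, adjusted p = 0.117) had an unadjusted p under 0.05, and ZNF85 was at −1.14. Between the combination and SAHA 0 of 8 members were called by limma in either line. In MV4-11 0.749% of all probe sets were called in this comparison in either direction and 2 members (ZNF93 and ZNF431) had an unadjusted p under 0.05, and in MOLM-14 0.0146% were called and 1 member (ZNF91) did. ZNF85 was 0.58 lower on the log2 scale with both drugs than with SAHA in MV4-11 and 0.13 lower in MOLM-14. ZNF431 was 0.42 higher in MV4-11 (adjusted p = 0.361) and 0.20 higher in MOLM-14 (adjusted p = 0.735).

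Probe sets of the same gene did not all give the same answer. ZNF430, the neighbour of ZNF85, had a main probe set (206829_x_at) that changed by −0.19 (adjusted p = 0.376) with the combination in MV4-11 and −0.23 in MOLM-14. Its second probe set, 238614_x_at, fell in both lines. In MV4-11 that probe set read 720.4, 765.3 and 818.7 with DMSO and 345.9, 401.3 and 504.6 with the combination, a change of −0.90 ± 0.18 (adjusted p = 0.017). In MOLM-14 it read 778.8, 828.9 and 1141.9 with DMSO and 376.2, 471.4 and 527.8 with the combination, a change of −0.99 ± 0.23 (adjusted p = 0.0361). The groups did not overlap in either line. The MV4-11 call was lost without DMSO replicate 1 or 2 or combination replicate 2 (adjusted p = 0.0547 to 0.0651), and the MOLM-14 call without any 1 array of the line other than ABT-869 replicates 2 and 3 (adjusted p = 0.0522 to 0.123). Without the arrays that stood apart the changes were −0.60 and −0.85 (adjusted p = 0.217 and 0.152). ZNF431 had 3 probe sets above the median signal, and its main one was barely the brightest, with a mean log2 signal of 9.36 against 9.35 for 232338_at. Those other than the main one did not pass in MOLM-14, at −0.79 (232338_at, adjusted p = 0.129) and −0.18 (243491_at, adjusted p = 0.622) with SAHA and −0.24 (adjusted p = 0.727) and −0.28 (adjusted p = 0.454) with the combination. On 232338_at the MOLM-14 combination arrays spread from 466.7 to 998.4. The 6 further probe sets of ZNF91 lay below the median signal, with changes from −1.73 to 0.90 with the combination in MOLM-14, and none passed. ZNF93 had another probe set above the median signal, 208119_s_at, on which the DMSO and combination arrays overlapped in both lines. Of its dim probe sets, 1569241_a_at read 3.7 to 6.6 with DMSO and 11.6 to 32.5 with the combination in MV4-11. No probe set of ZNF93 was called with the combination in either line. Which transcripts each probe set detects was not examined. Over the 24 arrays, after each value was centred on its line, the main and second probe sets of ZNF430 correlated at r = 0.712. The other ZNF431 probe sets correlated with the main one at 0.646 and 0.599. For the remaining genes the correlations with the main probe set were lower. They were 0.303 for ZNF85, −0.221 to 0.354 for ZNF93 and −0.077 to 0.267 for ZNF91.

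**Figure D5:**
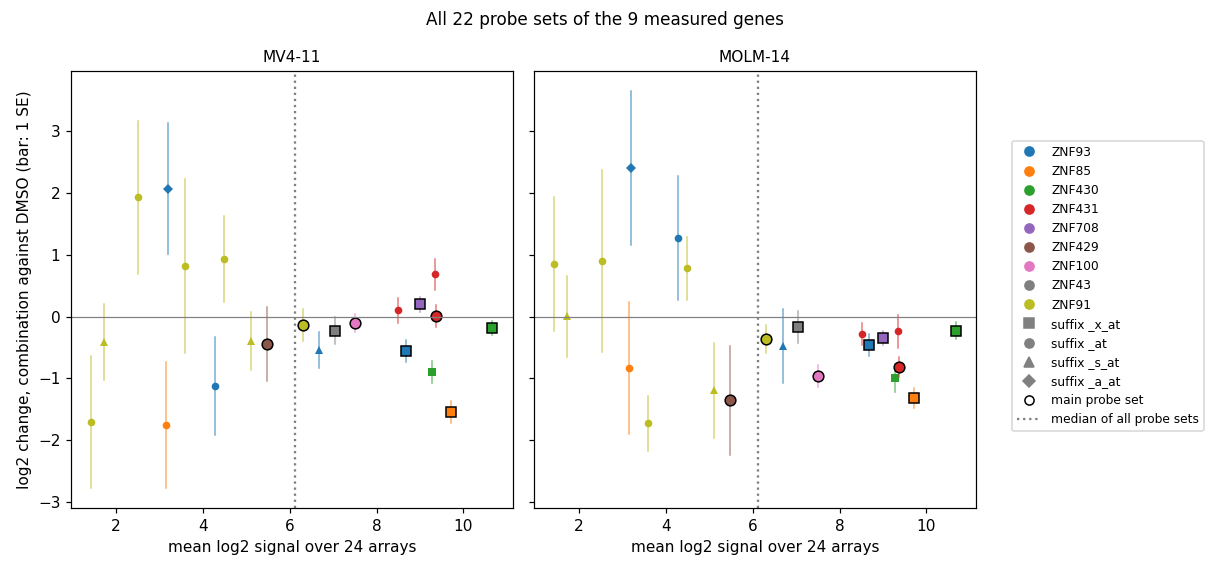
Log2 change with the combination against DMSO (y axis, bars of 1 SE) and mean log2 signal over 24 arrays (x axis) for the 22 probe sets of the 9 measured genes in each line, with colour for the gene, shape for the suffix and a black outline for the main probe sets. Probe sets left of the dotted line, the median of all probe sets at 6.126, have wide error bars, and the second ZNF430 probe set lies at −0.90 and −0.99.

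In untreated cells the main probe sets of 2 of 9 members differed between the lines, where 10.1% of all probe sets did in either direction. Among probe sets above the median signal, where all main ones but that of ZNF429 lie, 18.9% did. ZNF85 was lower in MOLM-14 than in MV4-11 (−0.59 ± 0.16, adjusted p = 0.0231) and ZNF431 was higher (0.56 ± 0.16, adjusted p = 0.0358). On these main probe sets neither gene's DMSO arrays overlapped between the lines. The other probe sets of ZNF431 were not called. On 232338_at the DMSO mean was 749.7 in MOLM-14 and 540.7 in MV4-11, with no overlap. On 243491_at it was 345.5 in MOLM-14 and 390.3 in MV4-11, with arrays that overlapped. Over all probe sets the median difference was −0.15. With arrays centred on their medians the difference of ZNF85 was −0.34 (adjusted p = 0.256), while that of ZNF431 was 0.82 (adjusted p = 0.00131) and ZNF708 was also called, at 0.51 (adjusted p = 0.00214). The difference of ZNF85 was lost without MV4-11 DMSO replicate 3 (adjusted p = 0.0974) or MOLM-14 DMSO replicate 1 (adjusted p = 0.0967). That of ZNF431 was lost without any 1 of the DMSO arrays other than MV4-11 replicate 2 (adjusted p = 0.0502 to 0.128). ZNF43 was at −0.59 (adjusted p = 0.14) and ZNF100 at 0.33 (adjusted p = 0.222). On their main probe sets ZNF431, ZNF708 and ZNF100 thus had their higher means in MOLM-14 before treatment. With the combination all 3 main probe sets had their higher means in MV4-11 (660.2, 546.6 and 171.6 against 543.9, 448.6 and 120.5).

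The members did not move as 1 block. Over the 24 arrays centred by line, which share the 4 treatments, ZNF431 and ZNF708, adjacent genes on opposite strands, had the highest correlation of the 36 pairs of main probe sets (r = 0.901). ZNF430 followed with both (0.731 with ZNF708 and 0.722 with ZNF431). The lowest was −0.096 for ZNF91 and ZNF429, and the median of the pairs was 0.38. The member most like ZNF85 was ZNF93 (0.646), from which 7 protein-coding genes separate it, ahead of the adjacent ZNF430 (0.631). These values are descriptions, since treatments and array scaling are common to all genes and the _x_at probe sets of ZNF85, ZNF43, ZNF93, ZNF430 and ZNF708 may share signal. Among 11956 genes above the median signal, those whose pattern was most like the mean of the 9 members were ZFP64, another zinc finger gene (r = 0.926), ZNF850, of a different chromosome 19 cluster (0.920), MAD2L1, of the mitotic checkpoint (0.913), PM20D2 (0.912) and CENPK, of the kinetochore (0.910). Least like it were RPS6KC1 (−0.930) and TENT5A (−0.907). The mean includes ZNF85, chosen on these arrays, and the dim ZNF429, so the ranking carries part of the chosen pattern. For ZNF85 alone, chosen after the values were seen, the closest genes outside the cluster were DSC2, a desmosomal cadherin (0.943), SUCLG2 (0.942), MND1, of meiotic recombination (0.941), ORC1, of the replication origin complex (0.931), and CENPH, of the kinetochore (0.927). DSC2, MND1 and ORC1 stand with ZNF85 in the study's list made from these arrays, so their likeness to it follows from that choice.

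The partners through which KRAB proteins repress were taken as a list of 24 genes, all measured. TRIM28, the co-repressor that binds the KRAB domain, read 7489.8, 8767.6 and 9047.2 with DMSO and 6080.4, 6340.0 and 6368.6 with the combination in MOLM-14, a change of −0.42 that did not pass (adjusted p = 0.056). In MV4-11 it changed by 0.15 (adjusted p = 0.535), and the difference between the lines was called (−0.58, adjusted p = 0.021). That call was lost with centred arrays, without the arrays that stood apart and without MV4-11 DMSO replicate 3, MV4-11 combination replicate 3, MOLM-14 DMSO replicate 1 or 2 or MOLM-14 combination replicate 3 (adjusted p = 0.0513 to 0.119). SETDB1 changed by −0.47 (adjusted p = 0.0764) in MOLM-14 and −0.15 (adjusted p = 0.58) in MV4-11. With the combination 6 of 24 partners fell and 1 rose in MOLM-14, where 2.80% of all probe sets were called lower (5.27% above the median signal) and 3.15% higher, with a list median of −0.12 against 0.03 over all probe sets. The largest falls were those of UHRF1 (−1.50, adjusted p = 0.00307) and DNMT1 (−1.17, adjusted p = 0.00312), which maintain DNA methylation, and of the histone methyltransferase SUV39H1 (−0.91, adjusted p = 0.00682). These 3 calls held in 20 of 20 alternatives. MTA2, a subunit of the NuRD deacetylase complex, rose by 2.05 (adjusted p = 0.0218) from a dim signal, a call lost in 7 of 19 alternatives. In MV4-11 the HP1 gene CBX5 fell (−0.45, adjusted p = 0.0366), PPHLN1, of the HUSH silencing complex, rose (0.53, adjusted p = 0.0322) and 22 did not pass. These 2 calls were lost in 13 and 11 of 20 alternatives. Of all probe sets 4.05% were called lower (7.19% above the median signal) and 4.89% higher with the combination in MV4-11. With SAHA alone 4 fell and 1 rose in MOLM-14. There 2.58% of all probe sets were called lower (4.37% above the median signal) and 2.74% higher. In MV4-11 1 partner fell with SAHA alone, where 2.46% of all probe sets were called in either direction. With ABT-869 alone 0 of 24 were called by limma in either line. Of the 24, 7 in MV4-11 and 1 in MOLM-14 had an unadjusted p under 0.05. Over all probe sets 0.862% were called with ABT-869 in MV4-11 and 0.0165% in MOLM-14. In untreated cells 6 of 24 were higher in MOLM-14 and 0 lower by limma, where 4.96% of all probe sets were higher. Above the median signal 18.9% of probe sets were called there in either direction.

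Of 25 further zinc finger genes of 19p12, 15 were measured. With the combination in MOLM-14, ZNF738, which lies between ZNF708 and ZNF493 (−0.85, adjusted p = 0.00869), and ZNF506 (−0.68, adjusted p = 0.0314) fell and 0 rose, with a list median of 0.01. Over all probe sets 2.80% were called lower there and 3.15% higher, with a median of 0.03. The call of ZNF738 held in 20 of 20 alternatives and that of ZNF506 was lost in 8. In MV4-11 ZNF738 fell (−0.46, adjusted p = 0.046), ZNF493 rose (1.15, adjusted p = 0.0219) and the median was −0.49, with calls lost in 15 and 5 of 20 alternatives. In that comparison 4.05% of all probe sets were called lower and 4.89% higher, with a median of −0.02. With SAHA 2 of 15 fell in MOLM-14 (list median −0.62) and none were called in MV4-11 by limma (median −0.41), where 5 had an unadjusted p under 0.05. Of all probe sets 2.58% were called lower in MOLM-14 (median −0.14) and 2.46% in either direction in MV4-11 (median −0.05). Some genes of this list, such as ZNF257 (mean log2 2.273) and ZNF99 (3.426), lay below the median signal of 6.126. Its medians thus rest partly on dim probe sets. Of 116 zinc finger genes in the other clusters of chromosome 19, 102 were measured. With the combination 1 of 102 (0.98%) fell and 7 (6.86%) rose in MV4-11, where 4.05% of all probe sets were called lower and 4.89% higher, and 16.3% were called in either direction above the median signal, ZNF382 (−1.04, adjusted p = 0.0445) falling and ZNF345 (0.79, adjusted p = 0.0206), ZNF420 (0.75, adjusted p = 0.0257) and ZNF551 (0.75, adjusted p = 0.0483) rising most. In MOLM-14 1 fell, ZNF850 (−0.88, adjusted p = 0.00455), and 1 rose, ZNF420 (0.78, adjusted p = 0.0279). The call of ZNF850 held in 20 of 20 alternatives, and those of the other genes named from this list were lost in 5 to 13. The medians of this list were 0.09 and −0.02, against −0.16 and −0.41 for the 8 members other than ZNF85 in the same comparisons, and the difference between the lists was not tested.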

How the data were processed

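Gene expression was measured in 24 cultures on 1 Affymetrix U133 Plus 2.0 array each. The deposited intensity values are linear signals that the authors had corrected for background, summarised per probe set and scaled to a common trimmed mean (500.06 to 500.07 with 2% left out at each end), with software that the sources used here do not name. Signals under 1 (0.209% of values) were raised to 1 and log2 was taken with no further normalization. Of 54675 probe sets 62 controls were left out. The gene of a probe set is that of the platform annotation, with symbols updated by gene identifier (41037 of 41091 probe sets naming 1 gene). Linear models were fitted with limma 3.58.1 (R 4.3.3), per line over 12 arrays and 4 groups, and over 24 arrays and 8 groups for differences between lines, with Benjamini-Hochberg adjustment over 54613 probe sets. The fit was tested on simulated data. Signals carry no read depth, and 3 arrays per group limit the precision. The p-values measure the spread between cultures of established lines.

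The members, gene lists, tests and motifs were chosen with earlier results of these data known. The genes named are the members, TRIM28, SETDB1, up to 3 falls and 3 rises with the combination in each list (adjusted p under 0.05, the largest), the 5 genes most and 2 least like the members' mean and the cell type markers. The 5 genes most like ZNF85 were added after their values were seen. Promoters were RefSeq's (GRCh38.p14), aligned locally with Biopython 1.88 (match 2, mismatch -1, gap opening -3, gap extension -1). Alternatives were quantile normalization, centring of arrays, limma-trend, a floor of 32, a fit of bright probe sets alone, 1 fit over all arrays, a replicate block, leaving out the arrays that stood apart, the brightest plain _at probe set of each gene and leaving out each array in turn.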

Additional observations from a re-analysis of the deposited data

Results flagged for a closer look

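On the main probe sets of 3 members the response to the combination differed between the lines by the interaction test. All 3 were lower in MOLM-14 relative to MV4-11. The other probe sets of ZNF431 did not pass this test. The difference on the log2 scale was -0.848 ± 0.222 (SE) for ZNF100, -0.831 ± 0.232 for ZNF431 and -0.544 ± 0.140 for ZNF708. On the main probe sets each MOLM-14 combination array of these genes lay below each DMSO array, in 3 of 3 arrays. In MV4-11 the groups of these probe sets overlapped for ZNF100 and ZNF431 and ran the other way for ZNF708. On the ZNF431 probe set 232338_at the MOLM-14 groups overlapped, and the MV4-11 combination arrays lay above DMSO. Over the alternatives the difference stayed between -0.941 and -0.566 for ZNF100 (adjusted p 0.00676 to 0.386), between -1.247 and -0.652 for ZNF431 (0.0107 to 0.0996) and between -0.738 and -0.455 for ZNF708 (0.00235 to 0.0748). It was no longer called in 11 of 32, 9 of 32 and 6 of 31 alternatives. The call of ZNF431 was lost without MV4-11 DMSO replicate 1 or 3, MV4-11 SAHA replicate 2, MV4-11 combination replicate 1, MOLM-14 DMSO replicate 1 or 3, MOLM-14 SAHA replicate 2 or MOLM-14 combination replicate 2 or 3. That of ZNF100 was lost under quantile normalization, median centring and limma-trend, without all the arrays that stood apart, and without MV4-11 DMSO replicate 1 or 2, MV4-11 combination replicate 2 or 3, MOLM-14 DMSO replicate 2 or 3 or MOLM-14 combination replicate 1. TRIM28 moved in the same direction (-0.58, adjusted p = 0.021), and its part in these results was not tested.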

How the results depend on the processing

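Counts of called members here include ZNF85, which was chosen on these arrays, so they describe the fits and are no test of its response. In the main fit ZNF85 was the only member called in MV4-11 for SAHA, for the combination and for the combination against ABT-869. It was also among the 2 called for SAHA, the 3 for the combination and the 3 for the combination against ABT-869 in MOLM-14. With limma-trend, 2 members were called for the combination in MV4-11, 3 for the combination against ABT-869 and 1 against SAHA there, and 5 for SAHA in MOLM-14. With dim probe sets left out the counts were 1 for ABT-869, 2 for the combination, 3 against ABT-869 and 1 against SAHA in MV4-11, 6 for SAHA and 5 for the combination against ABT-869 in MOLM-14, and 2 for the difference between lines in the response to SAHA. With a floor of 32 they were 1 for ABT-869 and 3 for the combination against ABT-869 in MV4-11, 5 for SAHA in MOLM-14 and 2 for the difference in the SAHA response. In 1 fit over all 24 arrays they were 2 for the combination and 2 against ABT-869 in MV4-11 and 6 for SAHA in MOLM-14. Under these 4 settings more of all probe sets were called too, in either direction 8.38% to 23.5% for SAHA in MOLM-14, 13.5% to 30.1% for the combination and 7.95% to 17.7% for the combination against ABT-869 in MV4-11, 3.24% to 7.55% for ABT-869 3.54% to 8.48% for the combination against SAHA there, 10.7% to 28.4% for the combination against ABT-869 in MOLM-14 and, with the floor and with dim probe sets left out, 3.05% and 6.69% for the difference in the SAHA response. The count for SAHA in MV4-11 was 0 with arrays centred, with the replicate block, without the arrays that stood apart and with plain _at probe sets. Without the arrays that stood apart, 0 were called for the combination and 0 against ABT-869 in MV4-11 and 0 between the untreated lines. With plain _at probe sets the counts were 0, 0 and 1 in these comparisons and 1 for SAHA in MOLM-14, and ZNF85 turned to 0.772 with SAHA in MOLM-14 on its dim second probe set. With the replicate block, 3 members were called for the combination in MOLM-14, and among the members other than ZNF85 the call of ZNF431 against ABT-869 alone was lost (adjusted p = 0.0548). Of 18 pairs of same-numbered replicates 1 in MV4-11 and 6 in MOLM-14 correlated at over 0.1 (median r -0.0143 and 0.0637, highest 0.328), against 7 and 2 of 36 pairs of different number. In MOLM-14 such correlations were thus more frequent among same-numbered pairs. Whether replicates of 1 number share a batch was not tested. The main fits leave the number out, and the replicate block includes it.

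The counts and totals of this paragraph also include ZNF85. Leaving out 1 array at a time gave 0 to 1 members for SAHA and 1 to 2 for the combination in MV4-11, 1 to 2 for SAHA, 1 to 3 for the combination and 1 to 3 for the combination against ABT-869 in MOLM-14. It gave 0 to 1 for the difference in the SAHA response, 0 to 3 for that in the combination response and 0 to 2 between the untreated lines. Over these and the other alternatives, the values of single genes kept their direction but lost the call in 149 cases with 1 array left out and in 47 others, and kept both, or had no call to lose, in 343 and 240. The cause was not tested for any of these shifts, other than that fewer arrays or probe sets were in the fit. With 30.3% of values under 32, dim probe sets such as that of ZNF429 and the further ones of ZNF91 allow no firm direction.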
